A study of Mus musculus with 4 samples.

Results

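The 45 mitosis genes described here are the kinases, cyclins, kinesins, kinetochore proteins, spindle proteins and cytokinesis proteins that carry a cell from G2 through division. They were chosen as a list of symbols and looked up in the symbol column of the deposited count table, where 45 of 45 were found among 39017 genes. All 45 had a mean of at least 1 CPM (the read count scaled to library size) and were therefore among the 14225 genes tested. RNA was sequenced from 4 lung tumours, 1 library each, which form 1 group of controls, so values are compared between tumours and between genes and not between conditions. The tumours came from male C57BL/6 KP mice (p53Fl/Fl together with a Cre-activated oncogene), which develop lung adenocarcinoma after Cre recombinase is delivered to the lung. A dose of 1500 viral units per mouse is given in the labels for the lentivirus, which drives Cre from the PGK promoter (the authors' methods give other doses for this vector), a promoter active in most cell types and not limited to 1 kind of lung cell. At 22 weeks and 5 days the tumours were dissected out, and RNA was taken from their dissociated cells. The labels name no cell sort. The methods describe bulk RNA for 1 set of lentiviral tumours and RNA of cells depleted of CD45+ immune cells for others, which include a PGK-Cre set. Which of these applies here is not settled, and the tumours are read as bulk from the labels alone. A further floxed allele is listed only as heterozygous fl/wt in the labels, with no gene named. The column names of the log2 table read WT, and in the authors' methods control mice carried either wild-type or heterozygous floxed Slc2a1. Tumours 1 and 3 were the libraries farthest apart, with a mean chi-square per gene of 69.1, and tumours 2 and 4 the closest, with 17.5.

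In the cell cycle, cyclin-bound Cdk1 starts mitosis, the aurora and polo kinases build the spindle, the kinetochore attaches chromosomes to it, and the spindle checkpoint holds the anaphase promoting complex inactive until every chromosome is attached. Cdc20 then activates that complex, which marks securin and the mitotic cyclins for destruction, and the central spindle guides cytokinesis. Many of these genes are transcribed together late in the cycle under the MuvB complex with B-Myb and FoxM1, and their promoters often hold a CHR element and CCAAT boxes, the latter bound by NF-Y.

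Shared promoter elements are part of what the field knows of these genes. The stretch around the start site is therefore shown for 3 members with a large ratio between tumours (Ect2, Plk1 and Kif23). Bub3 is added as a member with a small ratio. Members with a large ratio were shown only if their RefSeq promoter window held CHR, so CHR there was a condition of the choice. Of the 6 members with the largest ratio, Spc24, Ccna2 and Cdc25c had no matched window. Each runs 5′ to 3′ on the gene's strand from 140 bases before to 20 after a RefSeq start site on GRCm38.p6, with CHR (TTTGAA or its reverse complement TTCAAA) and CCAAT (or ATTGG) in capitals. Positions are counted from the start site, which for Ect2 and Bub3 is the upstream one of 2 RefSeq starts. The stretches lie at chr3:27153859-27154018 (minus strand), chr7:122159295-122159454 (plus), chr9:61946780-61946939 (minus) and chr7:131560230-131560389 (plus).
Ect2: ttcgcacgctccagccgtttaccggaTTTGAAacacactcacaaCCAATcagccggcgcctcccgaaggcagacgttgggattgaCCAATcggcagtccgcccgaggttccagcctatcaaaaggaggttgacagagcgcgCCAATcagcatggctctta
Plk1: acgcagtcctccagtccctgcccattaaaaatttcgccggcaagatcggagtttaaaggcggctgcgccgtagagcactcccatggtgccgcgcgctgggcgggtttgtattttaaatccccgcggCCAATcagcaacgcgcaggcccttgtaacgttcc
Kif23: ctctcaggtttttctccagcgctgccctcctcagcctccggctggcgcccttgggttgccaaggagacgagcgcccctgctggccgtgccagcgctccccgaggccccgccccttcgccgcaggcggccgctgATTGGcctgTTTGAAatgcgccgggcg
Bub3: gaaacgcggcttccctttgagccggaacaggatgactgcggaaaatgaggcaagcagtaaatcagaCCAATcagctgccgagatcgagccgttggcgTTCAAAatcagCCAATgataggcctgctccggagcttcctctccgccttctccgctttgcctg
In Ect2, CHR began at -114 and again at 40, beyond the stretch shown, and 3 CCAAT boxes began at -96, -55 and 2. In Plk1 a CCAAT box began at -14, and CHR began at 31, beyond the stretch shown. In Kif23 the CCAAT box (as ATTGG) began at -7 and CHR at 3, and in Bub3 CHR (as TTCAAA) began at -43 between CCAAT boxes at -74 and -32.

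RefSeq promoter windows of 300 bases (250 before to 50 after the start) were found for 37 of the 45 members, in 40 windows, since 3 genes had 2 starts. No window was matched for Spc24, Kif20a, Foxm1, Ccna2, Aurkb, Incenp, Cdc25c and Tpx2. CHR was present on either strand in 29 of 40 windows (72.5%), against 17.9% of the 32851 windows of all genes. CCAAT was present in 30 of 40 (75.0%) against 37.4%, and both motifs in 25 (62.5%) against 6.95%. At least 2 CCAAT boxes were found in 55.0% of the members' windows and in 11.7% of all. CHR lay within 50 bases of the start in 65.0% of the members' windows and in 4.94% of all. Counted by gene, CHR was found in 26 of 37 members, CCAAT in 27, both in 22 and neither in 6 (Birc5, Kif18a, Mad2l1, Nuf2, Nusap1 and Pttg1). The last letter of CCAAT can also be the first of CHR, so these matches could overlap by 1 base. CCAAT and ATTGG could overlap too, as at -186 and -183 in Ube2c. Each match was counted, so 1 site could count as 2 CCAAT boxes. A match describes the letters in the window and shows no binding. The ratio of the highest to the lowest tumour had a median of 1.56 in the 26 members with CHR and 1.60 in the 11 without.

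**Figure D1:**
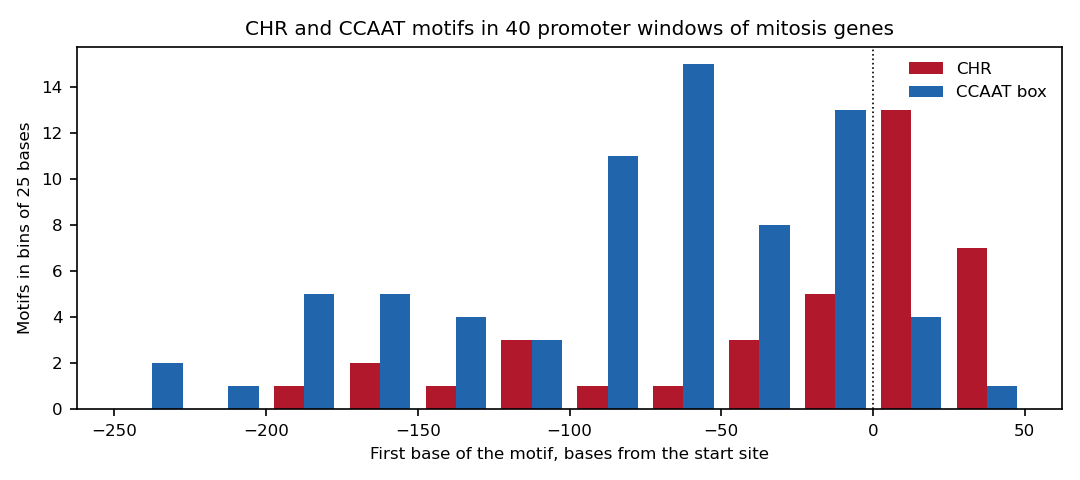
CHR and CCAAT motifs in the 40 promoter windows of 37 mitosis genes, by the distance of the first base of the motif from the RefSeq start site (x axis, bases) and number of motifs in bins of 25 bases (y axis). CHR crowds around the start site, within 50 bases of it in 65.0% of windows, and CCAAT boxes lie mostly upstream of it.

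The levels of the whole module differed between the tumours. Averaged over the 45 genes, log2 CPM reached 5.20 in tumour 1 and 4.93, 4.67 and 4.64 in tumours 2 to 4 (4.86 ± 0.26, SD, n = 4). Tumour 1 was the highest and tumours 3 and 4 were close together at the bottom. Their summed level was 2216, 1823, 1612 and 1501 CPM (1788 ± 315, SD, n = 4), which put tumour 1 1.48-fold above tumour 4. The median difference of tumour 1 from tumour 4 was 0.60 (log2 CPM) over the members and 0.00 over all genes tested. The highest and the lowest tumour were 0.56 apart in mean log2 CPM, and 0.30 without tumour 1.

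Of all counts, members took 0.229% (0.226 to 0.232%, 95% Wilson), 0.179% (0.176 to 0.182%), 0.160% (0.158 to 0.163%) and 0.149% (0.147 to 0.152%) in tumours 1 to 4. The 4 intervals did not overlap. Total counts were between 8151613 and 8799007 per tumour, so a count of 0 allows up to 3 counts, or 0.330 to 0.370 CPM, and the lowest count of any member in any tumour was 16. Intervals cover counting error only, since reads carried no molecular identifiers. In RNA pooled over many cells, fewer dividing cells and less RNA per dividing cell cannot be told apart.

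Tumour 1 was the highest for most members, and tumour 4 or 3 the lowest. Of the 45, 37 were highest in tumour 1 (31.4% of all genes tested were), 7 in tumour 2 (20.4%), 1 in tumour 3 (30.2%) and 0 in tumour 4 (18%). Lowest were 27 in tumour 4 (17.7% of all genes), 15 in tumour 3 (32.5%), 2 in tumour 1 (30.4%) and 1 in tumour 2 (19.4%). Tumour 1 was above tumour 4 in 43 of 45 members (50% of all genes), above tumour 3 in 42 (51.1%) and above tumour 2 in 37 (50.4%). Tumour 2 was above tumour 4 in 42 (49.5%) and above tumour 3 in 35 (51.4%). Tumours 3 and 4 were the neighbours closest to each other, with tumour 3 above in 29 of 45 (48.5%) and a median difference of 0.08 (log2 CPM). The order 1 > 2 > 3 > 4 held for 14 members (31.1% of members, 3.78% of all genes), 1 > 2 > 4 > 3 for 12 (8.72% of all genes) and 1 > 3 > 2 > 4 for 8 (3.32%). Highest in tumour 1 and lowest in tumour 4 were 22 members (7.1% of all genes), and highest in tumour 1 and lowest in tumour 3 were 14 (17.3%).

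**Figure D2:**
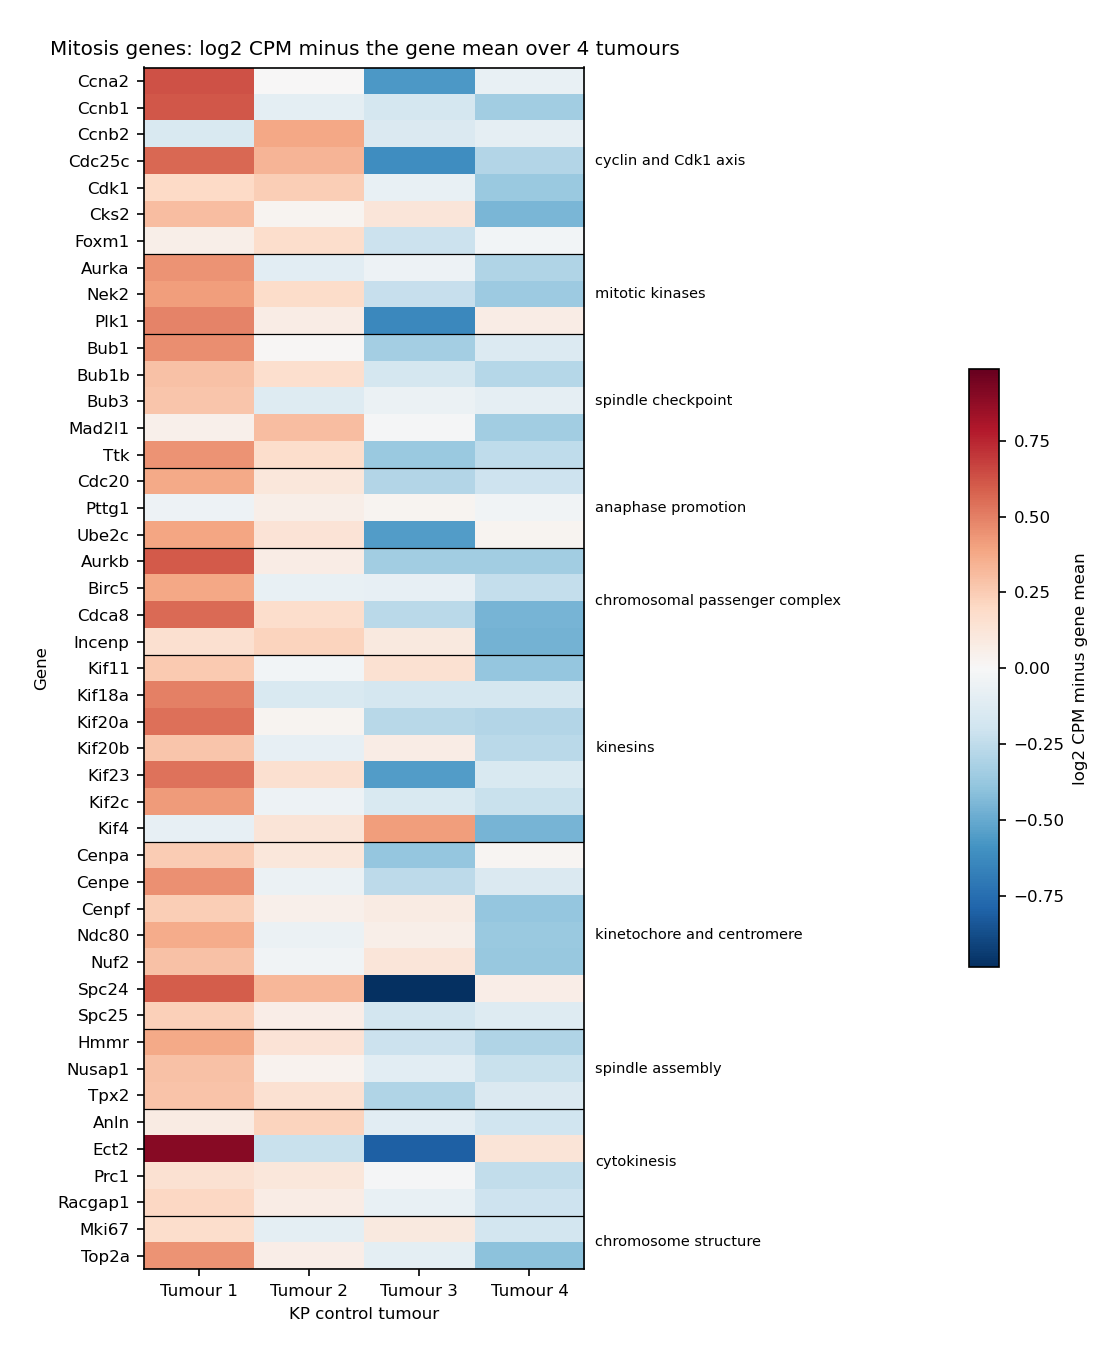
Log2 CPM of each of the 45 mitosis genes (rows, by role) minus the gene's mean over the 4 tumours (columns), with red above and blue below the mean. Tumour 1 is the highest in 37 rows, and tumour 4 the lowest in 27 and tumour 3 in 15, while Ccnb2, Kif4 and Pttg1 are among the rows that depart from this.

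Other transcripts moved along with the tumours. Markers of epithelial cells were highest in tumour 1 for 6 of 7 genes (31.4% of all genes tested were). Their summed level was 5281 CPM there and 3124 to 3341 CPM in the others. The exception, Cdh1, had 842, 887, 846 and 876 CPM in tumours 1 to 4 and was lowest in tumour 1. Markers of alveolar type 2 cells, the surfactant-producing cells, were lowest in tumour 1 for 7 of 9 genes (30.4% of all genes). Their sum there was 33007 CPM, against 53419 to 61110 CPM. The remaining markers of this list, Sftpb and Abca3, were lowest in tumour 3. Pan-leukocyte markers were highest in tumour 3 for 7 of 7 genes, with 439 CPM there, 179 in tumour 1, 215 in tumour 2 and 248 in tumour 4, and 6 of 7 were lowest in tumour 1. Ptprc, which encodes CD45, had 26.2, 35.8, 83.4 and 38.5 CPM in tumours 1 to 4. No defining marker of these 3 lists was under the filter of 1 CPM. Whether these values reflect amounts of cells or levels per cell was not tested. Their part in the level of the mitosis genes was not tested either.

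Whether a gene differed between tumours beyond counting noise was tested with a chi-square test of its 4 counts against Poisson expectations. The spread of 43 of 45 members was beyond counting noise at an adjusted p under 0.05, where 76.7% of all genes tested were. Those that did not pass were Pttg1 (adjusted p = 0.91) and Spc25 (adjusted p = 0.051). Without tumour 1 the number was 30 of 45, against 62.3% of all genes. At a mean CPM of at least 10 it was 40 of 41, against 85.3% of all genes. The size of the spread was near that of other genes. The highest tumour exceeded the lowest by a median of 1.59 times in the members (range 1.08 to 3.26) and 1.58 times in all genes tested. The SD of log2 CPM had a median of 0.31 and 0.29, and the biological coefficient of variation a median of 24.7% and 25.7%. In the 11075 genes within the members' range of mean CPM, the medians of ratio, SD and coefficient were 1.51, 0.27 and 24.1%. A ratio of at least 1.5 was reached by 32 members (56.9% of all genes) and one of at least 2 by 7 (28.5%). With 1 library per tumour, differences between tumours cannot be told apart from those between library preparations.

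The members spread less once they were measured against each other. When the expectation of each gene was set by the summed counts of the other 44 members in place of library size, 28 of 45 were still beyond counting noise, against 85.9% of all genes tested on the same scale. The median chi-square of the members was 35.8 against library size and 11.3 against the other members, while that of all genes was 24.6 and 43.0. The sum of the members itself fell from tumour 1 to tumour 4, and this scale passes that difference on to genes outside the module. The share and the median of all genes on it are therefore raised by construction and are no independent reference. Nusap1, a microtubule-binding spindle protein, followed the rest most closely, with a chi-square of 21.8 against library size and 0.424 against the other members. Of the 28, 8 were relatively highest in tumour 1 (Aurkb, Bub1, Ccna2, Ccnb1, Ect2, Kif20a, Kif23 and Top2a) and 4 in tumour 2 (Anln, Ccnb2, Cdk1 and Mad2l1). Another 9 were relatively highest in tumour 3 (Cenpf, Cks2, Incenp, Kif11, Kif20b, Kif4, Mki67, Nuf2 and Prc1) and 7 in tumour 4 (Bub3, Cenpa, Foxm1, Plk1, Pttg1, Spc24 and Ube2c). Without tumour 3 the number was 16, while the share of all genes on this scale went from 85.9% to 79.2%.

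**Figure D3:**
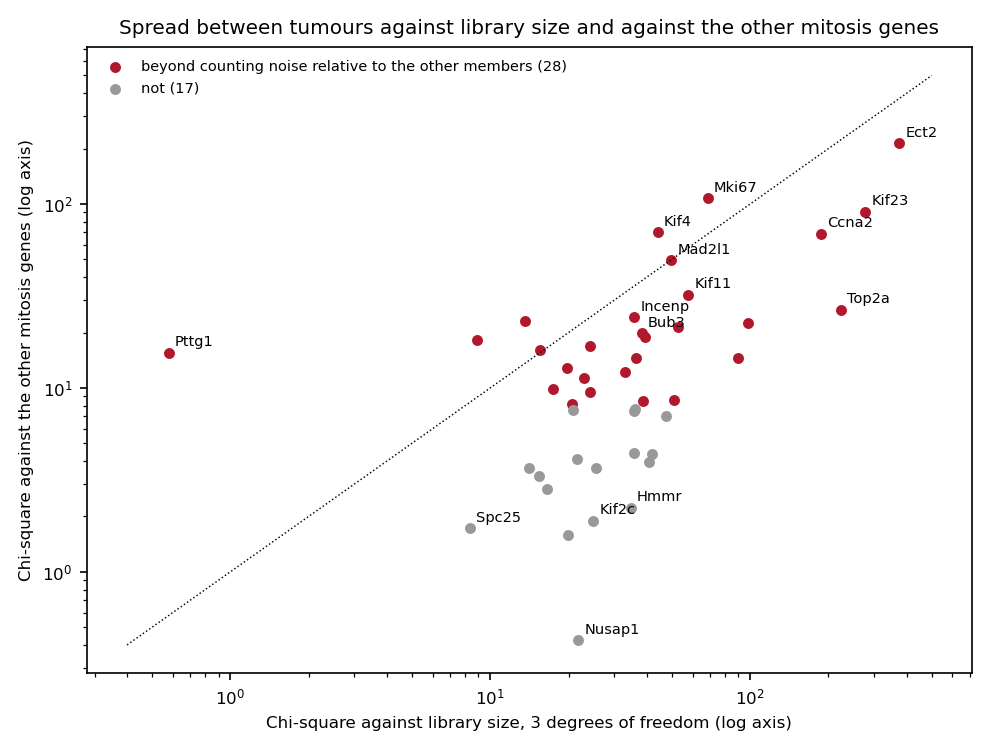
Chi-square of each member's 4 counts against library size (x axis, log) and against the summed counts of the other mitosis genes (y axis, log), with the dotted line at equality. Most of the 45 points lie under the line, the 28 red ones are beyond counting noise on the y scale, and Pttg1, Mki67, Ccnb2, Foxm1, Anln, Kif4 and Mad2l1 lie on or above it.

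The cyclin and Cdk1 axis (7 genes) had a mean log2 CPM of 5.01, 4.85, 4.46 and 4.46 in tumours 1 to 4. Per kilobase of merged exons, the scale on which genes can be compared, Cks2, a small Cdk-binding subunit, was the highest of all 45 members (42.0 ± 8.78 CPM per kb, SD, n = 4). Its level was 35.3, 29.0, 31.0 and 20.8 CPM in tumours 1 to 4. Tumour 4 was the low one, and the remaining tumours lay close to each other. Ccna2, the A-type cyclin of S phase and G2 (ENSMUSG00000027715, chr3:36564865-36572150, minus strand), had 87.4, 56.6, 38.0 and 53.6 CPM. It was high in tumour 1 and low in tumour 3, with a 2.30-fold ratio and an adjusted p of 2.5e-39. It also departed from the other members (adjusted p = 1.9e-14). Its exons share 510 bases with Exosc9 on the opposite strand, whose highest count was 448, and the strand setting of the counting was not given in the sources used here.

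The B-type cyclins had different highest tumours. Ccnb1 had 52.2, 31.8, 30.2 and 26.9 CPM in tumours 1 to 4 and was high in tumour 1. Ccnb2 had 12.9, 18.6, 13.0 and 13.4 CPM (ENSMUSG00000032218, chr9:70407692-70421547, minus strand), so tumour 2 stood alone above the other tumours, which lay within 12.9 to 13.4 CPM. Both departed from the other members (adjusted p = 8.0e-05 and 5.7e-05). As log2 CPM per kb, Ccnb1 minus Ccnb2 came to 0.55 in tumour 1 and to -0.69, -0.24 and -0.46 in tumours 2 to 4. The difference averaged -0.21 ± 0.54 (SD, n = 4), and an exact two-sided sign-flip test gave p = 0.5. The smallest p that 4 tumours allow in this test is 0.125, so no pair of genes could pass 0.05, and the sign of this mean turned with other gene lengths. Ccnb1 also has near-identical annotated pseudogene copies, the most counted of which, Ccnb1-ps, had at most 64 counts, so its own count is uncertain.

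Cdc25c, the phosphatase that removes inhibitory phosphates from Cdk1 (ENSMUSG00000044201, chr18:34732993-34751533, minus strand), had 8.47, 7.202, 3.70 and 4.64 CPM. It was the lowest member per kilobase of merged exons (1.22 CPM per kb). Tumours 1 and 2 were above tumours 3 and 4, with a 2.29-fold ratio on counts of 30 to 77 (adjusted p = 2.2e-04). Foxm1, the transcription factor of the G2 and M programme, had 30.4, 32.9, 25.2 and 28.7 CPM. Its ratio of 1.31 was among the 3 smallest of the members, and it passed the test narrowly (adjusted p = 0.040). Cdk1 itself lay between 45.9 and 69.9 CPM, highest in tumour 2 and lowest in tumour 4.

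The mitotic kinases (3 genes) had a mean log2 CPM of 4.40, 4.00, 3.65 and 3.76. Aurka, the kinase of the spindle poles, had 23.7, 16.1, 16.8 and 14.2 CPM in tumours 1 to 4, and Nek2, which separates the centrosomes, had 29.0, 24.7, 18.6 and 17.0 CPM. Both were highest in tumour 1 and lowest in tumour 4. Plk1, the polo kinase of mitotic entry and exit (ENSMUSG00000030867, chr7:122159439-122169873, plus strand), had 13.5, 10.1, 6.17 and 10.1 CPM. It was high in tumour 1 and low in tumour 3, with tumours 2 and 4 level, a 2.19-fold ratio and an adjusted p of 7.7e-05. Aurka exceeded Aurkb, its relative in the chromosomal passenger complex, by 0.67 ± 0.22 (log2 CPM per kb, SD, n = 4) and did so in 4 of 4 tumours (exact sign-flip p = 0.125). Aurkb had 19.4, 13.4, 9.996 and 9.99 CPM.

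The spindle checkpoint genes (5) had a mean log2 CPM of 5.47, 5.28, 4.98 and 4.95. Bub3, which binds phosphorylated kinetochores and carries Bub1 and BubR1 there (ENSMUSG00000066979, chr7:131560222-131571895, plus strand), had 95.9, 72.9, 76.3 and 74.8 CPM. Tumour 1 stood alone and the other tumours lay within 72.9 to 76.3 CPM. Bub3 was the checkpoint gene with the highest level per kilobase (11.4 ± 1.53 CPM per kb). Bub1b, which encodes BubR1, had 56.3, 51.8, 40.8 and 38.1 CPM, and Bub1, the checkpoint kinase, had 43.2, 31.7, 24.9 and 28.5 CPM. Bub1 was below Bub1b in 4 of 4 tumours, by a mean of -0.58 ± 0.18 (log2 CPM per kb, exact sign-flip p = 0.125). Ttk, the kinase that starts checkpoint signalling, had 12.3, 10.2, 7.03 and 7.61 CPM, among the 3 lowest means of the 45, and Mad2l1, which is converted to an inhibitor of Cdc20, lay between 45.4 and 71.4 CPM. Mad2l1 was among the members that were relatively highest in tumour 2.

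Genes of anaphase promotion (3) were split. Cdc20, the activator of the anaphase promoting complex, had 42.9, 35.8, 27.0 and 28.7 CPM, and Ube2c, its ubiquitin-conjugating enzyme, had 30.5, 25.4, 15.8 and 23.7 CPM. Both were highest in tumour 1 and lowest in tumour 3. Pttg1, which encodes securin, the guard of separase (ENSMUSG00000020415, chr11:43420250-43426251, minus strand), had 17.4, 18.7, 18.3 and 17.5 CPM. It was the flattest of the 45, with counts of 147 to 161 and a ratio of 1.08. Measured against the other members it was low in tumour 1 and high in tumour 4, -0.38 and 0.20 from its own average on the log2 scale (adjusted p = 0.0019).

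The chromosomal passenger complex (4 genes), which corrects faulty attachments, had a mean log2 CPM of 4.62, 4.29, 4.04 and 3.81, the widest difference between the highest and the lowest tumour of the 10 role groups. All 4 genes were lowest in tumour 4 (17.7% of all genes tested were). Incenp, its scaffold, had 40.1, 41.7, 38.3 and 25.9 CPM, with tumour 4 low and the remaining tumours between 38.3 and 41.7 CPM. Birc5, which encodes survivin, had 24.5, 17.9, 17.8 and 15.9 CPM, high in tumour 1. Against the other members Birc5 was not beyond counting noise (adjusted p = 0.67), whereas Incenp was (adjusted p = 3.4e-05). Cdca8, which encodes borealin, lay between 9.28 and 18.8 CPM.

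Among the kinesins (7 genes, mean log2 CPM 5.49, 5.14, 5.06 and 4.86), Kif23, the motor of the central spindle (ENSMUSG00000032254, chr9:61915905-61946774, minus strand), had 153, 118, 72.1 and 95.1 CPM. It was highest in tumour 1 and lowest in tumour 3, with a ratio of 2.12 and an adjusted p of 1.7e-58, and had 1 of the 3 highest means of the members. Kif20a, another motor of cytokinesis, had 57.7, 40.4, 32.7 and 32.4 CPM, and its relative Kif20b had 43.6, 34.0, 37.9 and 30.0 CPM. Both were highest in tumour 1. Kif20a exceeded Kif20b in 4 of 4 tumours, by 0.82 ± 0.26 (log2 CPM per kb, exact sign-flip p = 0.125), although 1271 exonic bases of Kif20a lie opposite Cdc23, whose highest count was 587. Kif18a, which dampens the movement of chromosomes at the spindle equator (ENSMUSG00000027115, chr2:109280738-109341747, plus strand), had 17.3, 11.0, 10.9 and 10.8 CPM, so tumour 1 stood alone above tumours that differed by less than 1 CPM.

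Kif4, a chromokinesin (ENSMUSG00000034311, chrX:100625737-100727214, plus strand), was the 1 member that was highest in tumour 3. Its levels were 26.4, 30.4, 37.1 and 20.2 CPM, with tumour 4 the lowest. Against the other members its log2 level was 0.56 from its own average in tumour 3 and -0.41 in tumour 1 (adjusted p = 1.1e-14). It shares 832 exonic bases with Pdzd11 on the opposite strand, whose highest count was 416. Kif11, which pushes the spindle poles apart, lay between 50.5 and 78.8 CPM, and Kif2c, a microtubule depolymerase, between 16.8 and 26.2 CPM. Both were highest in tumour 1 and lowest in tumour 4.

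The kinetochore and centromere genes (7) had a mean log2 CPM of 4.56, 4.27, 3.99 and 4.02. All 7 were highest in tumour 1 (31.4% of all genes tested were). Cenpa, the histone H3 variant of the centromere, had 29.0, 26.3, 18.6 and 24.7 CPM, lowest in tumour 3. The 4 subunits of the Ndc80 complex, which holds the ends of microtubules, were measured at unequal levels. Ndc80 had 16.8, 12.5, 13.6 and 10.1 CPM and Nuf2, with which it forms a dimer, had 26.8, 21.4, 23.8 and 16.9 CPM. Ndc80 was below Nuf2 in 4 of 4 tumours by -0.78 ± 0.06 (log2 CPM per kb, exact sign-flip p = 0.125), the pair with the smallest SD of the 6.

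The other dimer of the complex was less even. Spc24 (ENSMUSG00000074476, chr9:21755442-21760303, minus strand) had 6.05, 4.99, 1.97 and 4.16 CPM, with counts of 55, 43, 16 and 35, the lowest mean of the members, and Spc25 had 20.8, 18.5, 15.5 and 16.2 CPM. Spc24 was low in tumour 3, and Spc25 had a ratio of 1.34 between tumours. As log2 CPM per kb, Spc24 minus Spc25 came to -2.63 in tumour 3 and to -1.46, -1.57 and -1.63 in tumours 1, 2 and 4. It was negative in 4 of 4 tumours and averaged -1.82 ± 0.54 (exact sign-flip p = 0.125). The ratio of 3.07 of Spc24 was the second largest of the members (adjusted p = 9.7e-04). Cenpe, a kinetochore motor, lay between 26.8 and 43.8 CPM, and Cenpf, a large kinetochore protein, between 35.4 and 54.8 CPM.

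The spindle assembly genes (3) had a mean log2 CPM of 5.40, 5.20, 4.89 and 4.87. Tpx2, the activator of aurora A, had 50.7, 46.2, 33.9 and 37.7 CPM and Nusap1 had 41.6, 35.0, 31.7 and 29.3 CPM. Both were highest in tumour 1, and tumour 2 was second. Hmmr, a spindle protein also known as a hyaluronan receptor, lay between 22.6 and 35.9 CPM. In this group 3 of 3 genes differed between tumours beyond counting noise, where 76.7% of all genes tested did. Relative to the other members 0 of 3 did so. The share of all genes on that scale, 85.9%, is raised by construction and is no independent reference.

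Cytokinesis genes (4) held the widest and some of the narrowest ranges. Ect2, the guanine nucleotide exchange factor that activates RhoA at the cleavage plane (ENSMUSG00000027699, chr3:27097222-27153878, minus strand), had 96.6, 44.4, 29.6 and 56.6 CPM in tumours 1 to 4. Tumour 1 was high, tumour 3 low, and tumour 4 lay above tumour 2, so Ect2 did not follow the order of the module. Its 3.26-fold ratio was the largest of the 45, and its spread passed the test against library size (adjusted p = 9.4e-80) and against the other members (adjusted p = 2.1e-45). Relative to the other members its log2 level was 0.59 from its own average in tumour 1 and -0.69 in tumour 3. Prc1, which bundles the microtubules of the central spindle, had 76.3, 74.2, 68.1 and 58.3 CPM, a ratio of 1.31, with tumour 4 the lowest. Anln, the actin-binding anillin, lay between 31.5 and 42.1 CPM, and Racgap1, the partner of Kif23 in centralspindlin, between 31.6 and 41.9 CPM.

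The chromosome structure genes, Mki67 and Top2a, were the most abundant members and took 19.1% of the summed CPM. Mki67, which encodes Ki-67, the coat of mitotic chromosomes and a common marker of proliferation (ENSMUSG00000031004, chr7:135689784-135716361, minus strand), had 228, 189, 215 and 178 CPM (202 CPM ± 23.1, SD, n = 4). Top2a, the topoisomerase that untangles sister chromatids (ENSMUSG00000020914, chr11:98992943-99024189, minus strand), had 185, 142, 127 and 103 CPM (139 CPM ± 34.5). Both were highest in tumour 1 and lowest in tumour 4, but Mki67 placed tumour 3 second and had the second smallest ratio of the members (1.28, against 1.80 for Top2a). Mki67 was beyond counting noise on both scales (adjusted p = 3.4e-14 against library size and 1.1e-22 against the other members), and was relatively highest in tumour 3. With expectations set by the members without Mki67 and Top2a, a scale chosen after seeing the data, 26 of 45 members were beyond counting noise, against 28 with them.

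**Figure D4:**
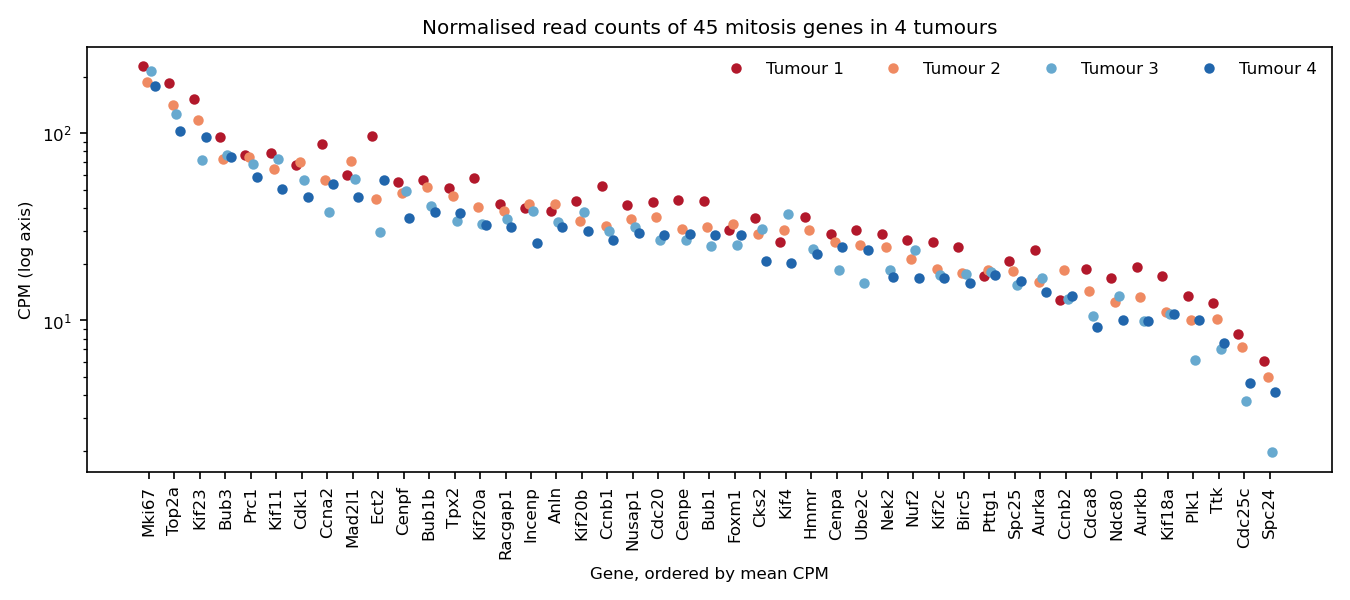
CPM (y axis, log) of each of the 45 mitosis genes (x axis, ordered by mean CPM) with 1 point per tumour. Means run from 202 CPM for Mki67 to 4.30 CPM for Spc24, and the red points of tumour 1 lie on top for 37 genes.

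A tumour stood alone, by Dixon's ratio on log2 CPM, in 3 of 45 members (Ccnb2, Kif18a and Bub3), where 5.86% of all genes tested did. Read against other genes this share (6.67%) is close to the background. The mean CPM per kb ran from 42.0 ± 8.78 for Cks2 through 20.1 ± 2.30 for Mki67, 17.98 ± 3.90 for Cdc20 and 15.4 ± 3.83 for Top2a (SD, n = 4) down to 1.22 ± 0.4499 for Cdc25c. Of the 44 pairs of neighbours in the order of these means, 1 (Cks2 and Mki67) was separated by more than the sum of both SDs, and the other neighbours did not differ beyond their spread. This order depends on the gene lengths used. Per kb of the longest transcript, Cks2 (42.0) was followed by Kif23 (32.2) and Top2a (26.6), and Kif18a (1.92) was the lowest. Neighbours were not compared on that scale. Counts of 14 members are uncertain because their exons share bases with another gene, on the opposite strand for 12 of them, and 20 members have a near-identical stretch in another annotated gene. For some of the 20 that stretch is the same overlap, as for Ccna2 and Exosc9. Spc24 shares a stretch with Malat1, whose highest count was 21671, and Cdc25c with several genes, including Cdkn1a (708). The low counts of Spc24 and Cdc25c are therefore uncertain too.

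Other genes of the same processes were read from lists to see how far the pattern went, with the 2 most abundant genes of each named. Over all genes tested, 31.4% were highest in tumour 1, 17.7% lowest in tumour 4, 32.5% lowest in tumour 3 and 76.7% beyond counting noise, and the counts below are to be read against these shares. Of 14 other mitotic regulators, 7 were highest in tumour 1 and 8 lowest in tumour 3, and 12 were beyond counting noise. Ube2s, which extends ubiquitin chains for the anaphase promoting complex, had 102, 63.2, 54.9 and 61.5 CPM and was high in tumour 1, whereas Cdc25b, a relative of Cdc25c, had 47.2, 53.9, 93.8 and 79.7 CPM and was high in tumours 3 and 4. Of 33 other kinetochore and spindle genes, 23 were highest in tumour 1 and 18 lowest in tumour 4, and 26 were beyond counting noise, a share close to that of all genes. Zwint, an outer kinetochore protein, had 152, 154, 121 and 134 CPM and was higher in tumours 1 and 2, and Ckap5, a microtubule polymerase, had 112, 120.2, 128 and 113 CPM and was highest in tumour 3. Of 8 condensin genes, which compact chromosomes, 5 were highest in tumour 1 and 8 of 8 were beyond counting noise. Ncaph2 had 172, 137, 138 and 141 CPM and Smc4 162, 136, 120.3 and 135 CPM, both highest in tumour 1.

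The subunits of the anaphase promoting complex did not share the pattern. The mean log2 CPM of 12 subunits was 5.95, 5.97, 5.94 and 5.91 in tumours 1 to 4, a difference of 0.06 between the highest and the lowest tumour, against 0.56 for the mitosis genes. Of the 12, 11 were still beyond counting noise one by one. Anapc5, with 228, 251, 259 and 231 CPM, was highest in tumour 3, and Anapc1, with 177, 171, 141 and 174 CPM, was lowest there. The DNA replication genes of S phase (28) had 5.18, 5.08, 4.91 and 4.56, with 16 highest in tumour 1, 23 lowest in tumour 4 and 26 beyond counting noise. Tumours 3 and 4 were 0.35 apart in this list and 0.03 apart in the mitosis genes. Pcna, the sliding clamp of DNA polymerases, had 165, 161, 180.4 and 137 CPM and was highest in tumour 3, and Rrm1, of ribonucleotide reductase, had 171, 128, 117 and 98.8 CPM and was highest in tumour 1. Both were lowest in tumour 4. These differences between lists are descriptions and were not tested.

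**Figure D5:**
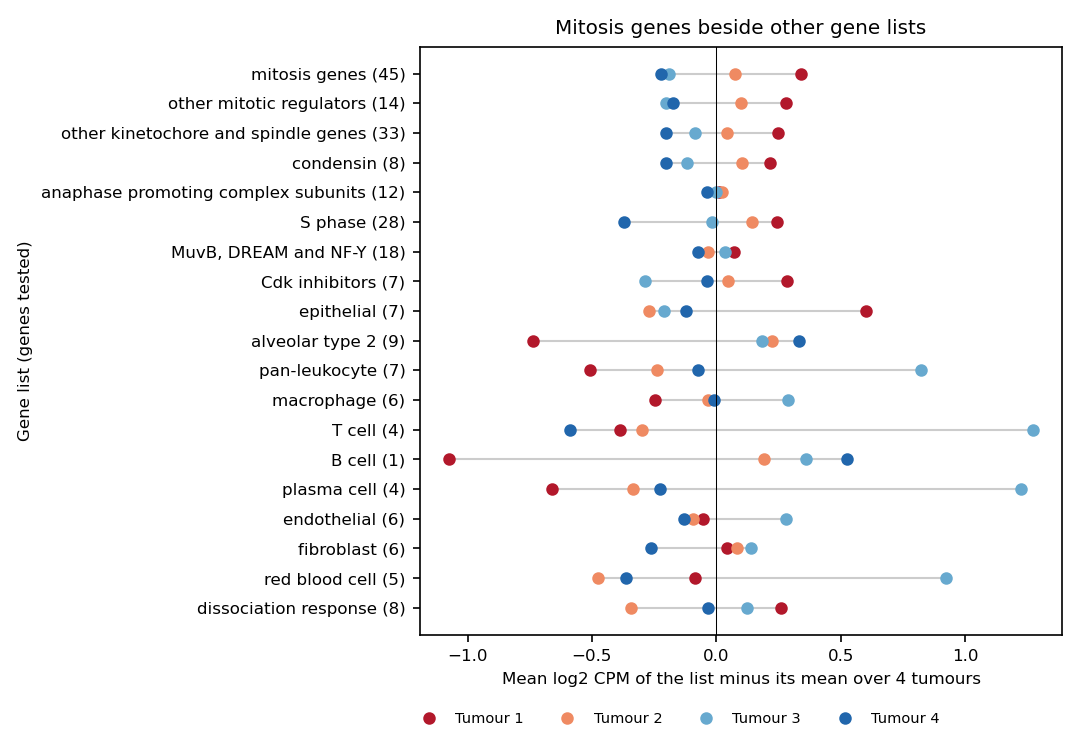
Mean log2 CPM of the mitosis genes and of 18 other gene lists (rows, with the number of genes tested) in each tumour, minus the list's mean over the 4 tumours (x axis). The mitosis genes span 0.56 with tumour 1 on the right, and the anaphase promoting complex subunits span 0.06. Pan-leukocyte and T cell lists have tumour 3 on the right. The T cell list includes Cd3g, which passed the filter only through tumour 3.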

How the data were processed

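RNA of 4 KP control lung tumours was sequenced from stranded libraries of polyadenylated RNA made from 500 ng of total RNA. Per the labels and the authors' methods, single-end reads were trimmed with Cutadapt (version 1.4.2 in the submitters' processing notes, while the methods name another version), aligned to mm10 with HISAT2 and counted per Ensembl gene with featureCounts 1.4.4. The strand setting and annotation release are not given in the sources used here. The deposited counts are raw counts without normalization, and 156068 of 156068 values were equal in the combined and single-tumour tables. The authors also deposited log2 normalised counts, which served as an alternative. Nothing in the labels ties each tumour to a mouse of its own, so tests measure only the spread between these samples.

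CPM was computed from counts and TMM effective library sizes (edgeR 4.0.16, R 4.3.3), and for log2 CPM 0.5 was added to counts and 1 to effective sizes. The 14225 genes whose CPM averaged 1 or more were tested. Spread was tested by a chi-square test of 4 counts against Poisson expectations (3 degrees of freedom), with expectations proportional to effective library size or to the summed counts of the other members, and Benjamini-Hochberg adjustment over all genes tested (scipy 1.17.1). A tumour stood alone where its distance to the closest tumour, divided by the range of log2 CPM, exceeded Dixon's limit for 4 samples. Pairs of genes were compared by exact two-sided sign-flip permutation tests. The biological coefficient of variation came from edgeR's tagwise dispersions. Positions, exon lengths and overlaps are those of GENCODE M21 on GRCm38, near-identical copies were stretches of 80 nt or longer with 97% identity or higher (BLAST 2.17.0), and promoter windows are RefSeq's on GRCm38.p6.

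The members and the 18 other gene lists (192 genes, all matched, 6 by identifier) were chosen with earlier results of these data known. Genes given in full were the 2 highest per kilobase in each of 10 role groups, the 3 highest and 3 lowest by mean CPM, the 6 largest and 3 smallest ratios between tumours, the 12 genes of 6 pairs and those with 1 tumour alone. Other members are given by their range, and Kif4 was given in full after its values were seen. The planned rule allowed up to 4 genes of a list by mean CPM. The 2 highest are named for the cell cycle lists. For the marker lists only Cdh1, Sftpb, Abca3, Ptprc, Sdc1, Cd3g, Lck and the T cell markers under the filter are named. They were chosen after their values were seen. Alternatives were DESeq2 1.42.0 size factors, total counts, other filters, an edgeR Poisson likelihood-ratio test, a variance 2 times Poisson, 2 added to each count, the deposited log2 values, other gene lengths and leaving out each tumour.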

Additional observations from a re-analysis of the deposited data

Results flagged for a closer look

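A tumour lay apart from the remaining ones, by its gap to the nearest over the whole range (Dixon's ratio), in 6 of 81 values examined, and chance gives about 1 in 20 (5%). Among the mitosis genes, Ccnb2 was high in tumour 2 with 18.6 CPM, Kif18a in tumour 1 with 17.3 CPM and Bub3 in tumour 1 with 95.9 CPM. Among the lists, the mean log2 CPM of alveolar type 2 markers was low in tumour 1 (10.37). That of the 4 T cell markers tested was high in tumour 3 (1.88). Of these 4, Cd3g passed the filter of 1 CPM only through tumour 3 (0.55, 0.58, 3.33 and 0.36 CPM in tumours 1 to 4). The T cell mean in tumour 3 was therefore in part set by the filter. Lck, also 1 of the 4, was highest in tumour 1 and lowest in tumour 3. Among the pairs, Spc24 minus Spc25 was low in tumour 3 (-2.63 on the scale of log2 CPM per kb), where Spc24 had 16 counts.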

How the results depend on the processing

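The design has 1 group, and p-values rest on 4 libraries of about equal depth (the largest total was 1.08 times the smallest). No analysis paired between groups was possible because 1 group has no second group to share its replicate numbers. Only genes were paired, within each tumour. Under the alternatives, 130 values stayed within the spread or limit set for them, 7 moved further (4 of them the level per tumour taken from the summed CPM) and 2 changed sign. The number of members beyond counting noise, 43 with all tumours, lay between 30 (without tumour 1) and 41 when a tumour was left out and was 36 at a variance 2 times Poisson, while the share of all genes, 76.7% with all tumours, lay between 62.3 and 71.9% and was 58.5%. Relative to the other members and with a tumour left out, the number lay between 16 (without tumour 3) and 28. The share of all genes then lay between 71.4 and 83.3% (79.2% without tumour 3). When a tumour was left out, the number lowest in tumour 3 lay between 15 and 33 (without tumour 4). The number lowest in tumour 4 then lay between 28 and 40, and the number highest in tumour 1 between 37 and 42. At a mean CPM of at least 10 these numbers were 11, 27 and 33 of 41 members. The difference of the mean log2 CPM between the highest and the lowest tumour fell from 0.56 to 0.30 without tumour 1. The cause was not tested, except that a tumour left out can no longer be the highest or lowest. Ccnb1 minus Ccnb2 (-0.21 per kb of merged exons) was 1.25 with no length correction and 0.55 per kb of the longest transcript, which follows from the lengths used. Dixon's ratio cannot be computed with 3 tumours.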

Other observations

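Regulators of the cell cycle programme were read from further lists. The 18 genes of MuvB, DREAM and NF-Y had a mean log2 CPM of 4.86, 4.75, 4.82 and 4.71 in tumours 1 to 4, and 14 of 18 were beyond counting noise, a share close to the 76.7% of all genes tested. Rbbp4, a histone-binding subunit of MuvB, had 278, 258, 232 and 224 CPM. Nfya, a subunit of the CCAAT-binding factor NF-Y, had 132, 92.9, 82.3 and 111 CPM. The 7 Cdk inhibitor genes had 4.80, 4.56, 4.23 and 4.48, with 6 of 7 beyond counting noise. Cdkn1a, the inhibitor induced by p53, had 77.9, 39.96, 32.2 and 49.0 CPM and was highest in tumour 1, while Cdkn1b had 101, 113, 101 and 139 CPM and was highest in tumour 4.

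Further markers of cells and handling are given as values. The summed level of 6 macrophage markers was 191, 213, 285 and 209 CPM in tumours 1 to 4. The 8 T cell markers summed to 6.71, 7.67, 23.9 and 6.78 CPM, and of these 4 (Cd3d, Cd3e, Cd4 and Cd8a) averaged under 1 CPM and were not tested. Of 5 B cell markers 1 was tested, and the 5 together had 6.16, 13.6, 18.4 and 17.96 CPM. The 4 of 5 plasma cell markers tested had a mean log2 CPM of 4.31, 4.63, 6.19 and 4.75, highest in tumour 3, while the sum of all 5, led by Sdc1, which epithelial cells also express, was highest in tumour 1 with 1326 CPM. Endothelial markers (6) summed to 212, 211, 272 and 212 CPM, fibroblast markers (6) to 531, 395, 499 and 301 CPM (highest in tumour 1, although their mean log2 CPM of 5.33, 5.37, 5.42 and 5.02 was highest in tumour 3) and red blood cell genes (5) to 39.8, 32.3, 109.8 and 45.1 CPM. The 8 genes of the dissociation response summed to 175, 148, 152 and 139 CPM, and their mean log2 CPM was lowest in tumour 2.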
